A study of Mus musculus with 12 samples.

Results

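Inflammasome genes were followed in whole bone marrow (BM) cells of mice with 4 genotypes. The 10 members, namely Nlrp3, Nlrc4, Aim2, Naip2, Naip5, Pycard, Casp1, Casp4, Il18 and Gsdmd, were chosen by symbol, and all 10 are among the 12199 genes of the count table and the 12175 genes tested. They were chosen for their place in the pathway and not by a threshold on these values, but with earlier results of these data known. RNA-Seq was run on 3 WT, 3 DF, 3 TF and 2 TFD libraries, all from C57BL/6 mice. DF mice carried Flt3ITD/WT and 1 floxed Dnmt3a allele with MxCre (Dnmt3a+/- Flt3ITD/WT), TF mice were Tet2+/- Flt3ITD/WT, and TFD mice were Tet2+/- with floxed Dnmt3a, MxCre and Flt3ITD/WT. Flt3ITD, which makes the FLT3 receptor signal without its ligand, was therefore shared by every mutant library, whereas WT mice carried none of these alleles and no Cre. All mice, WT included, had received poly(I:C), a double-stranded RNA mimic that induces interferon and through it the Mx1 promoter of MxCre, as young adults some weeks before the BM was taken. MxCre is not restricted to blood cells, and the WT mice came from a core facility and not from the same crosses. TFD replicate 3 was not analysed here, and the labels do not say that numbered libraries come from separate mice, so p values measure the spread between these libraries.

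An inflammasome is a protein complex that forms in the cytosol of myeloid and other cells when a sensor detects microbial products or cell damage. Sensors such as NLRP3, NLRC4 and AIM2 recruit caspase-1, mostly through the adaptor ASC, which Pycard encodes. Caspase-1 then cleaves the precursors of IL-1β and IL-18 and opens gasdermin D, whose fragment forms pores in the plasma membrane. Mouse caspase-11, encoded by Casp4, cleaves gasdermin D directly after sensing bacterial lipopolysaccharide inside the cell. The complexes are regulated largely after transcription, so the values that follow describe mRNA and not the activity of an inflammasome.

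DF and TF each had higher mRNA levels than WT for 6 of the 10 genes and TFD for 5 of them, and none was lower. Adjusted p is that of edgeR's quasi-likelihood F test after Benjamini-Hochberg correction across the 12175 genes, and calls are at an adjusted p under 0.05. Aim2, Naip2, Pycard, Casp1 and Gsdmd were called in all 3 mutant genotypes, Naip5 in DF and TF, and Nlrp3, Nlrc4, Casp4 and Il18 in none. Changes in expression were common in these marrows: 21.0% of all genes tested were called higher and 16.6% lower in DF, 19.0% higher and 15.6% lower in TF, and 14.7% higher and 11.6% lower in TFD. When libraries were scaled by their totals and not by TMM factors, 42.3% of the DF calls were in the higher direction, against 55.9%, and the calls of the 10 genes were the same. The median log2 fold change of the 10 genes was 0.57 in DF, 0.47 in TF and 0.36 in TFD, beside 0.05, 0.02 and 0.01 over all genes tested. The 3 comparisons share the WT libraries and are not independent of each other. For 6 of the 10 genes every mutant library lay above every WT library, a pattern held by 16.1% of all genes tested. In the TFD comparison, which rests on 2 libraries, leaving out TFD replicate 1 reduced the 5 calls to 3.

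**Figure D1:**
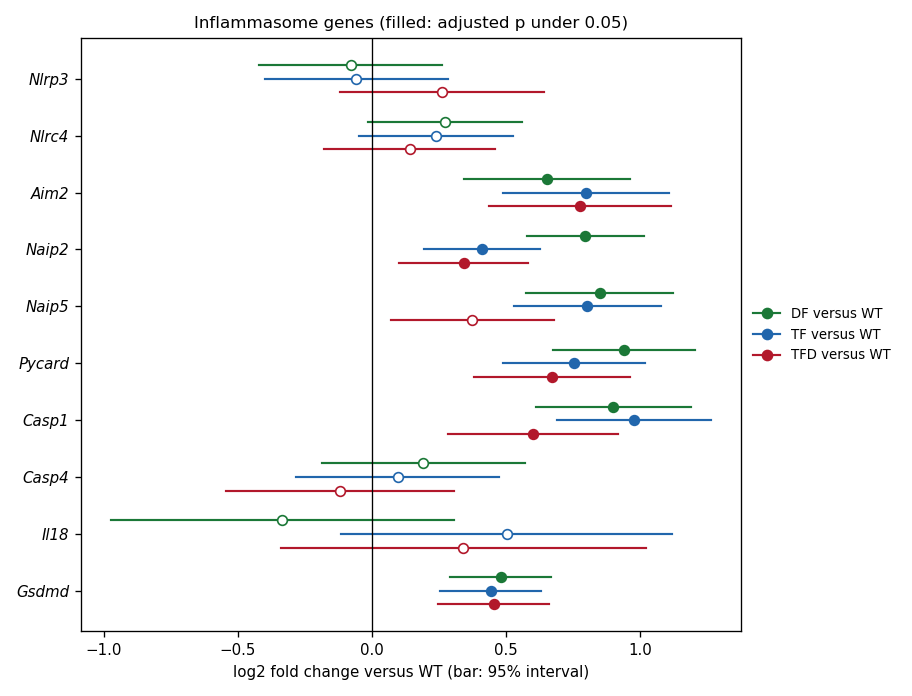
Log2 fold change versus WT for each inflammasome gene (horizontal axis, log2 units) in DF, TF and TFD, with bars for the 95% interval and filled points for an adjusted p under 0.05. Aim2, Naip2, Pycard, Casp1 and Gsdmd are filled in each genotype, and the intervals of Nlrp3, Nlrc4, Casp4 and Il18 include 0.

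The makeup of the marrow differed between genotypes, and RNA from whole BM cannot tell apart fewer cells of a type from less RNA per cell. Library totals over the 12199 genes ranged from 8274153 to 15900904 reads. Monocyte markers, led by F13a1 and Ccr2, summed to 2297 to 2566 CPM (reads scaled to a common library size) in WT, 6741 to 7474 in DF, 6479 to 7931 in TF, with 6611 to 6702 for TFD. B cell markers, led by Cd79b and Ms4a1, summed to 436 to 525 CPM in WT and to between 15.0 and 76.9 CPM in the mutant libraries. TF replicate 3 had the mutant value nearest to WT for B cell markers (76.9 CPM) and erythroid markers (1232 CPM, within the WT range of 1160 to 1506 CPM). Its T cell (56.6 CPM), NK cell (39.9 CPM) and dendritic cell markers (91.0 CPM) summed to more than in any WT library. Without TF replicate 3, 7 of the 10 inflammasome genes were called in TF. The libraries also mixed sexes, by reads of Xist (a female-specific RNA) and of the Y-linked Ddx3y. WT replicate 3, TF replicate 3 and TFD replicate 2 held 30976 to 42152 Xist reads and 3 to 12 Ddx3y reads. The other 8 libraries, among them all 3 of DF, held 18 to 538 Xist reads and 1040 to 2132 Ddx3y reads, so that DF had no library of the female pattern. With a term for the Xist-high libraries, all 17 calls of the 10 genes against WT held. Monocytes express many inflammasome genes, and the part of the shift in marker levels in the differences that follow was not tested.

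Aim2, the sensor of DNA in the cytosol, was higher in every mutant library than in any WT library. Levels below are log2 CPM, and libraries are given in the order of their replicate numbers. Aim2 stood at 5.01, 5.28 and 5.41 in the 3 WT libraries, at 5.84, 5.82 and 6.03 in DF, at 6.18, 5.99 and 5.94 in TF, with 5.77 and 6.24 in TFD. Against WT, Aim2 differed by 0.65 on the log2 scale in DF (SE 0.14, adjusted p = 0.00361), by 0.80 in TF (SE 0.14, adjusted p = 0.00123) and by 0.78 in TFD (SE 0.16, adjusted p = 0.0032). These are 1.57-fold, 1.74-fold and 1.71-fold higher levels than in WT. The TFD libraries differed from each other by more than the DF libraries did, with an SD of 0.33 against 0.12.

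Nlrp3, whose product responds to potassium efflux and many kinds of cell stress, showed no such separation. Its levels were 7.33, 7.30 and 7.49 log2 CPM in WT, 7.17, 7.13 and 7.55 in DF, 7.46, 6.98 and 7.47 in TF, with 7.43 and 7.82 in TFD. The WT libraries lay inside the range of DF, TF replicate 2 was the lowest library, and TFD replicate 2 the highest. Its difference from WT on the log2 scale was -0.08 for DF (95% interval -0.42 to 0.26, adjusted p = 0.715), -0.06 for TF (-0.40 to 0.28, adjusted p = 0.801), while TFD had 0.26 (-0.12 to 0.64, adjusted p = 0.300). The intervals leave room for changes of moderate size in either direction in DF and TF, so equal levels were not shown.

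The NAIP proteins bind bacterial flagellin or secretion needle and rod proteins and then recruit NLRC4, which builds the complex. Naip2 rose in each genotype, with the largest value in DF. It measured 7.13, 7.23 and 7.18 log2 CPM in WT, 7.79, 8.0 and 8.12 in DF, 7.67, 7.56 and 7.55 in TF, with 7.56 and 7.49 in TFD. Every DF library exceeded every TF and TFD library, and all of these exceeded WT. Relative to WT, DF differed by 0.80 on the log2 scale (SE 0.10, adjusted p = 8.81e-05), TF by 0.41 (SE 0.10, adjusted p = 0.00753) and TFD by 0.34 (SE 0.11, adjusted p = 0.0376). The call in TFD was lost in 8 of the 11 fits that each left out a library, namely any WT or TFD library, DF replicate 2, or TF replicate 1 or 2. The highest adjusted p was 0.148, without TFD replicate 1, where the log2 fold change was 0.31. The call was also lost with the replicate numbers as a block (adjusted p = 0.0572) and in a fit of TFD and WT alone (adjusted p = 0.103).

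Naip5, a flagellin receptor, was higher in DF and TF, with TFD in between. It stood at 5.98, 5.63 and 5.94 log2 CPM in WT, 6.57, 6.77 and 6.79 in DF, 6.84, 6.55 and 6.60 in TF, with 6.13 and 6.35 in TFD. All mutant libraries were above WT, and both TFD libraries were below every DF and TF library. Its log2 fold change was 0.85 (SE 0.13, adjusted p = 0.000272) in DF and 0.80 (SE 0.13, adjusted p = 0.000509) in TF, and 0.38 (SE 0.14, adjusted p = 0.0657) in TFD, which did not pass. Nlrc4 itself was at 4.51, 4.46 and 4.43 log2 CPM in WT, 4.58, 4.87 and 4.77 in DF, 4.86, 4.80 and 4.43 in TF, with 4.56 and 4.66 in TFD. TF replicate 3 was level with the lowest WT library, and the other 7 mutant libraries were above all WT libraries. Nlrc4 did not pass the test in DF (0.27, 95% interval -0.01 to 0.56, adjusted p = 0.120), TF (0.24, -0.05 to 0.53, adjusted p = 0.177) or TFD (0.14, -0.18 to 0.46, adjusted p = 0.517). Without TF replicate 3, it passed in TF (0.36, adjusted p = 0.0421), and in the 10 other leave-one-out fits it did not (adjusted p up to 0.472).

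The Naip genes are a family of near copies on chromosome 13, and the authors counted unique alignments, so reads of shared stretches could not be assigned. Naip2 shares 19.1% of its 50-base windows of transcript sequence with other genes, chiefly Naip1, and Naip5 shares 36.8%, chiefly with Naip6 (GENCODE M21 transcripts). Their values are uncertain to that extent. In mm10 coordinates, Naip2 lies on the minus strand at chr13:100144063-100202122 and Naip5 next to it at chr13:100211740-100247336. Nlrp3 is at chr11:59542686-59566956, Nlrc4 at chr17:74426295-74459108 and Aim2 at chr1:173420604-173466036. None of these 5 overlaps an exon of another annotated gene, and at most 1.09% of the windows of Nlrp3, Nlrc4 and Aim2 are shared.

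**Figure D2:**
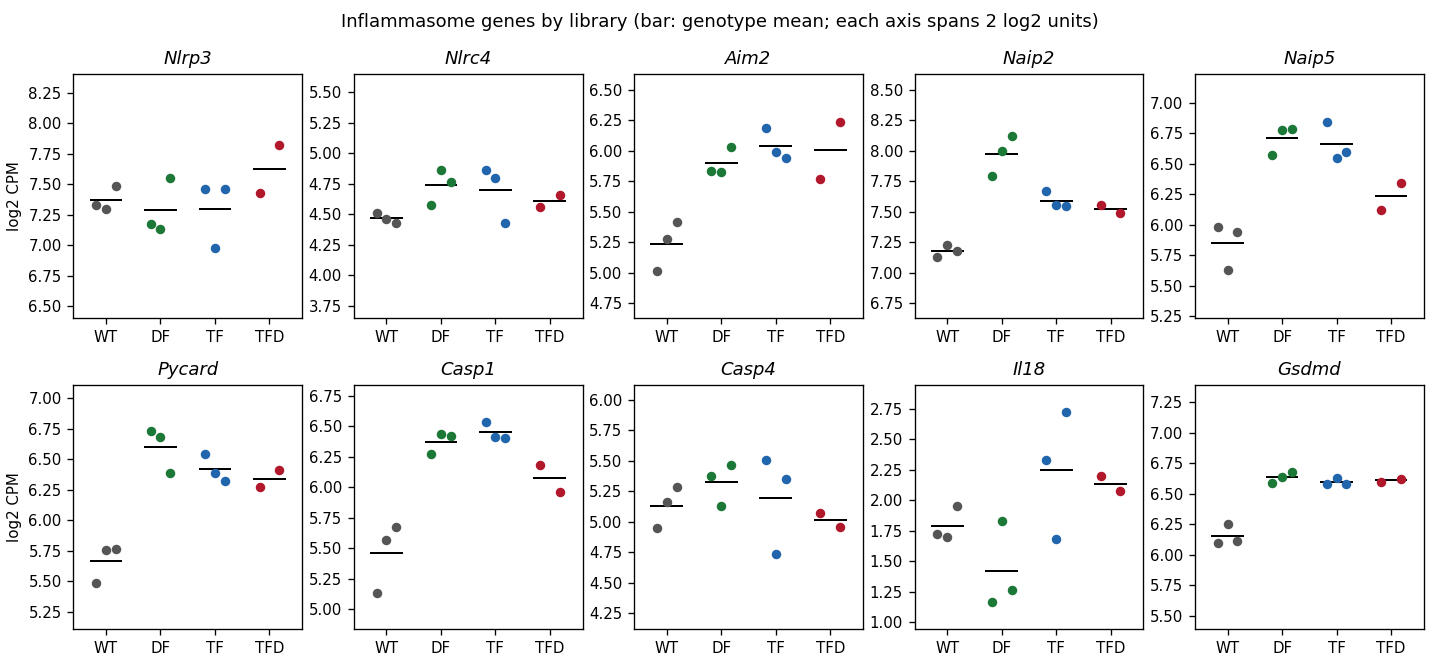
Level of each inflammasome gene in each library (vertical axis, log2 CPM, 2 log2 units in every panel), with points for libraries and bars for the genotype mean. The mutant points lie above all WT points for Aim2, Naip2, Naip5, Pycard, Casp1 and Gsdmd, and overlap them for Nlrp3, Nlrc4, Casp4 and Il18.

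Pycard, which encodes the adaptor ASC, was higher in all mutant genotypes. It measured 5.48, 5.75 and 5.76 log2 CPM in WT, 6.73, 6.69 and 6.39 in DF, 6.55, 6.39 and 6.33 in TF, with 6.27 and 6.41 in TFD. The lowest mutant library, TFD replicate 1, was still above the highest WT library. Pycard exceeded WT by 0.94 in DF (SE 0.12, adjusted p = 0.000106), by 0.75 in TF (SE 0.12, adjusted p = 0.00063) and by 0.67 in TFD (SE 0.13, adjusted p = 0.00297) on the log2 scale, or 1.92-fold, 1.69-fold and 1.59-fold. Pycard is at chr7:127991373-127993867 on the minus strand. Of its 2135 exon bases, 485 (22.7%) lie in exons of Gm45205 on the opposite strand, and since the strand setting of the counting is not given in the sources used here, reads of the 2 genes in that stretch may not be separated.

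Casp1, the protease of the canonical inflammasome, also rose in every mutant genotype. Its levels were 5.14, 5.57 and 5.68 log2 CPM in WT, 6.27, 6.43 and 6.42 in DF, 6.54, 6.42 and 6.40 in TF, with 6.18 and 5.97 in TFD. WT replicate 1 was the lowest of the 11 libraries, and the 2 TFD libraries were the lowest of the mutants. On the log2 scale Casp1 was above WT by 0.90 in DF (SE 0.13, adjusted p = 0.000257), by 0.98 in TF (SE 0.13, adjusted p = 0.000182) and by 0.60 in TFD (SE 0.15, adjusted p = 0.00914). The TFD call was lost without TFD replicate 1 (0.49, adjusted p = 0.0787).

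Casp4, which encodes the lipopolysaccharide sensing caspase-11, lies directly after Casp1 on the plus strand of chromosome 9 and showed a different picture. Casp1 spans chr9:5298517-5307281 and Casp4 chr9:5308849-5336791. Casp4 was at 4.95, 5.16 and 5.28 log2 CPM in WT, 5.37, 5.13 and 5.47 in DF, 5.50, 4.73 and 5.35 in TF, with 5.07 and 4.96 in TFD. The groups overlapped, and TF held both the highest and the lowest library of all 11. Relative to WT, Casp4 stood at 0.19 on the log2 scale in DF (95% interval -0.19 to 0.57, adjusted p = 0.408), at 0.10 in TF (-0.28 to 0.48, adjusted p = 0.698) and at -0.12 in TFD (-0.54 to 0.31, adjusted p = 0.699).

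Gsdmd, the pore-forming substrate of both caspases, had the smallest SD of the 10 genes within each mutant genotype, at 0.05 in DF, 0.03 in TF and 0.02 in TFD. It stood at 6.10, 6.25 and 6.11 log2 CPM in WT, 6.59, 6.64 and 6.68 in DF, 6.58, 6.63 and 6.58 in TF, with 6.59 and 6.62 in TFD. The 8 mutant libraries spanned 6.58 to 6.68, all above WT. Log2 differences from WT were 0.48 for DF (SE 0.09, adjusted p = 0.00105), 0.44 for TF (SE 0.09, adjusted p = 0.00211) and 0.45 for TFD (SE 0.10, adjusted p = 0.00421), or 1.40-fold, 1.36-fold and 1.37-fold. Gsdmd is at chr15:75862339-75867404 on the plus strand. Unlike the Naip genes, Pycard, Casp1, Casp4, Il18 and Gsdmd share 0 windows of 50 bases with transcripts of other genes.

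Il18, the cytokine precursor that caspase-1 cleaves, was the least abundant of the 10 genes. Between 24 and 73 reads were counted per library. Levels were 1.72, 1.70 and 1.95 log2 CPM in WT, 1.17, 1.83 and 1.26 in DF, 2.33, 1.68 and 2.72 in TF, with 2.20 and 2.07 in TFD. DF replicates 1 and 3 were the lowest libraries, and TF replicate 3 the highest. For Il18 the log2 difference from WT came to -0.33 in DF (95% interval -0.97 to 0.31, adjusted p = 0.393), to 0.50 in TF (-0.11 to 1.12, adjusted p = 0.188) and to 0.34 in TFD (-0.34 to 1.02, adjusted p = 0.459). These are the widest intervals of the 10 genes, at the lowest read counts. Il18 is at chr9:50565368-50581837 on the plus strand.

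The mutant genotypes were next compared with each other, since the study asked how adding the third allele alters expression. Between DF and TF, 1 of the 10 genes was called, higher in DF, where 1.67% of all genes tested were called higher and 5.94% in either direction. This was Naip2, at a log2 difference of 0.39 (adjusted p = 0.0413, SE 0.10). Under scaling by totals, 13.9% of all DF versus TF calls were in the higher direction, against 28.1%. The Naip2 call did not hold in 9 of the 11 fits that each left out a library (all but those without DF replicate 1 or TFD replicate 1), nor with library totals or RLE factors, a fit of the 2 genotypes alone, replicate numbers as a block or a term for Xist reads, in which adjusted p ranged up to 0.188 (without DF replicate 3). With the Xist term, which stands for sex, the Naip2 difference was 0.37 (adjusted p = 0.0733), and the part of sex in it was not tested further. Over the leave-one-out fits the difference stayed between 0.29 and 0.45. Il18 was lower in DF than in TF by a value that did not pass (-0.84, 95% interval -1.46 to -0.22, adjusted p = 0.114), and passed without TF replicate 2 (-1.07, adjusted p = 0.0307) and not in the 10 other leave-one-out fits (adjusted p up to 0.432). The other 8 genes differed between DF and TF by at most 0.19 on the log2 scale.

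Between DF and TFD, none of the 10 genes was called, and 2 had an unadjusted p under 0.05 (Naip2 and Naip5); 0% of all genes tested were called in this comparison. DESeq2 called 1 of the 10, Naip2 (0.43, adjusted p = 0.0252), and 2.12% of all genes. In edgeR the difference of Naip2 between DF and TFD was 0.45 (95% interval 0.21 to 0.70, adjusted p = 0.137) and that of Naip5 was 0.47 (0.17 to 0.78, adjusted p = 0.181). Nlrp3 was lower in DF than in TFD by a value that did not pass (-0.34, -0.72 to 0.04, adjusted p = 0.403). Between TF and TFD, none of the 10 was called by edgeR or DESeq2, which called 0.0164% and 1.08% of all genes tested, and 2 members had an unadjusted p under 0.05. These were Naip5, at 0.43 (95% interval 0.12 to 0.73, adjusted p = 0.385), and Casp1, at 0.38 (0.06 to 0.70, adjusted p = 0.496), both with the higher level in TF. Aim2 and Gsdmd differed between TF and TFD by 0.02 (-0.32 to 0.36) and -0.01 (-0.22 to 0.20).

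Levels can be compared between genes only per length, as RPKM, the reads of a gene scaled to its exon length and to the library. In WT the order of mean RPKM was Nlrp3 (41.4), Gsdmd (40.1), Naip2 (29.9), Casp1 (29.4), Casp4 (24.4), Pycard (23.9), Aim2 (14.9), Naip5 (11.0), Nlrc4 (5.77) and Il18 (3.98). The WT ranges of Nlrp3 and Gsdmd overlapped, as did those of Naip2 and Casp1, and those of Casp1, Casp4 and Pycard. Aim2, Naip5, Nlrc4 and Il18 followed with ranges that overlapped none of the genes above or below them. In DF the mean RPKM of Gsdmd (56.0), Casp1 (54.9), Naip2 (52.0) and Pycard (45.8) exceeded that of Nlrp3 (39.2). In TF, Casp1 (58) and Gsdmd (54.5) came first, and Nlrp3 (39.7) was level with Naip2 (39.8) and Pycard (40.2). In TFD, Gsdmd (55.0) and Nlrp3 (49.6, range 42.9 to 56.3) overlapped at the head of the order. Casp1 had the next mean (44.6), and its range (41.3 to 47.9) overlapped that of Nlrp3. Il18 was last in every genotype, at 3.13 in DF, 5.68 in TF and 5.05 in TFD.

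Ratios within a library do not depend on its scaling. In 3 of the pairs a gene called higher is set against a partner that was not called, and the fourth, Naip2 to Naip5, holds 2 genes that were both called in DF and TF. The pairs were chosen with the values known, so the ratios are a description, with no test. The log2 ratio of Casp1 to Casp4 (of RPKM) averaged 0.26 in WT (range 0.12 to 0.34), 0.98 in DF (0.83 to 1.24), 1.19 in TF (0.97 to 1.62) and 0.99 in TFD (0.94 to 1.04). Casp1 was thus close to Casp4 per length in WT, and at about 2 times its level in the mutant genotypes. The log2 ratio of Aim2 to Nlrp3 averaged -1.48 in WT (-1.66 to -1.36), -0.73 in DF (-0.86 to -0.65), -0.60 in TF (-0.86 to -0.33) and -0.96 in TFD (-1.0 to -0.92). Nlrp3 remained the more abundant of the 2 sensors per length in all 11 libraries, and by the least in TF. For Naip5 to Nlrc4 the values were 0.92 in WT (0.70 to 1.05), 1.51 in DF (1.45 to 1.55), 1.5 in TF (1.29 to 1.70) and 1.16 in TFD (1.1 to 1.22). The receptor thus stood above its partner NLRC4 in every library, with no overlap between WT and mutants. The log2 ratio of Naip2 to Naip5 averaged 1.46 in WT, 1.39 in DF, 1.06 in TF, with 1.41 for TFD, and the TF libraries (0.96 to 1.13) lay below all others.

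**Figure D3:**
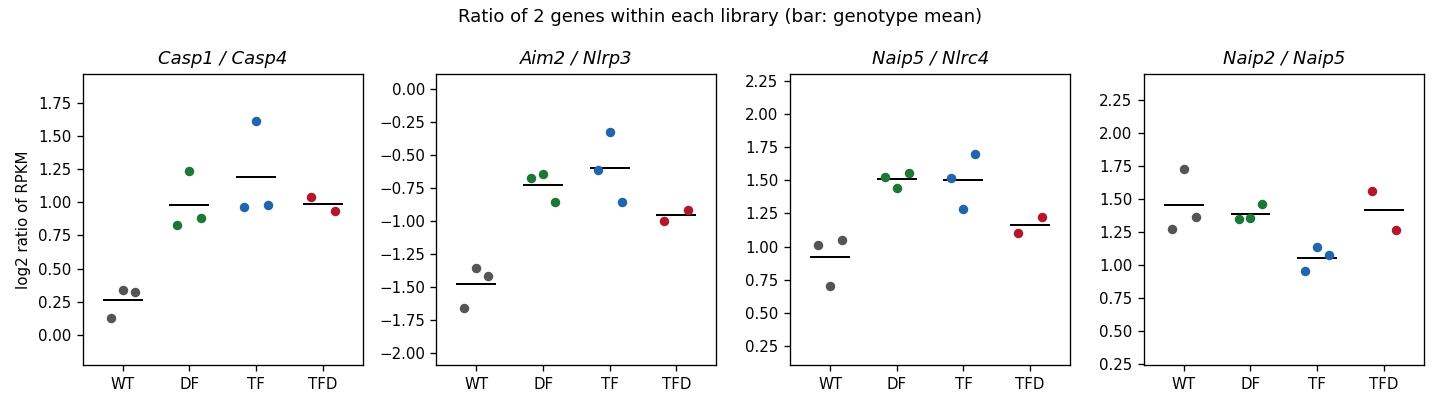
Log2 ratio of the RPKM of 2 inflammasome genes within each library (vertical axis, log2 units), with points for libraries and bars for the genotype mean. The ratios of Casp1 to Casp4, Aim2 to Nlrp3 and Naip5 to Nlrc4 are lowest in the 3 WT libraries, and that of Naip2 to Naip5 is lowest in the 3 TF libraries.

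Since Casp1 rose and its neighbour Casp4 was not called, the 250 bases before their start sites are shown, with those of Aim2 and Pycard, which rose in every mutant genotype. They are RefSeq sequences (GRCm38.p6), written 5′ to 3′ on the strand of the gene, and capitals mark motif matches.
Aim2, chr1:173420354-173420603, plus strand: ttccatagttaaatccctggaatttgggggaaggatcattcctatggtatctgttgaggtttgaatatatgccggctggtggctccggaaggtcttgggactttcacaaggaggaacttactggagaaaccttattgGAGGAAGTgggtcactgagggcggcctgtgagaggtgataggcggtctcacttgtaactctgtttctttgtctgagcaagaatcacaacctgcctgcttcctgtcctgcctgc
Pycard, chr7:127993868-127994117, minus strand: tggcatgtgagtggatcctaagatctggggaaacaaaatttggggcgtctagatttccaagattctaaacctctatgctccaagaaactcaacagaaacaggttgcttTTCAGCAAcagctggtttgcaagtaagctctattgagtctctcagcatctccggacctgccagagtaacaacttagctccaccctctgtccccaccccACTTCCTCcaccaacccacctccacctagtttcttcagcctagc
Casp1, chr9:5298267-5298516, plus strand: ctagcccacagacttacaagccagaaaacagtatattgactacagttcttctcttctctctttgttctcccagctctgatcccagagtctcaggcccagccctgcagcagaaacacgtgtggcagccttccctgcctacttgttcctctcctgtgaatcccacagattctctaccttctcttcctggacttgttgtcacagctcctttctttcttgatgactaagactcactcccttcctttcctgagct
Casp4, chr9:5308599-5308848, plus strand: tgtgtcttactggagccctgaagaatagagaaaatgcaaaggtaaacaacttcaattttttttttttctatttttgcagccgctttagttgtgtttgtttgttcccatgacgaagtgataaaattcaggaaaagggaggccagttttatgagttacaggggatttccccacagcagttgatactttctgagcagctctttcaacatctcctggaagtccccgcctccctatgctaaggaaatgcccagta
The promoter table held 9 of the 10 genes, 8 of them at the start of the counted gene. The window of Il18 lies before a start site at chr9:50554700, upstream of the start of the counted gene at chr9:50565368. Motifs were searched on both strands for the interferon elements GAS (TTCNNNGAA), IRF (GAAA, any 2 bases, GAAA) and ETS-IRF (GGAA, any 2 bases, GAAA), and for PU.1 (GAGGAAGT), NF-kB (GGGA, any 2 bases, TTCC), C/EBP (TTGCNNAA) and AP-1 (TGANTCA). The letters of ETS-IRF and IRF can overlap. Aim2 held a PU.1 match 113 to 106 bases before its start. Pycard held a PU.1 match 44 to 37 bases before its start and a C/EBP match 142 to 135 bases before it. PU.1 and C/EBP factors direct myeloid gene expression, and their letters occurred in 2.44% and 9.56% of all 32851 promoter windows of this length. Nlrc4 held a C/EBP match 36 to 29 bases before its start, and no match was found in the windows of Nlrp3, Naip2, Naip5, Casp1, Casp4 and Il18. The letters of GAS, IRF, ETS-IRF, NF-kB and AP-1, found in 7.02%, 2.98%, 2.3%, 1.21% and 6.75% of windows, were in none of the 9 genes. Only exact letters were counted, and the Casp4 window holds gggatttccc, which comes close to the NF-kB letters. The windows of Casp1 and Casp4 were identical at 127 of 225 aligned bases (56.4%), and those of Naip2 and Naip5 at 153 of 234 (65.4%).

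Of 28 other genes of the pathway, 26 were tested. In DF, 9 were called higher and 4 lower, in TF 9 and 4, and in TFD 6 and 5, with median log2 fold changes of 0.24, 0.27 and 0.16 beside the 0.05, 0.02 and 0.01 of all genes. Among 6 other sensors, 4 were higher in each mutant genotype, and 1, Nlrp12, was lower in TF (-0.85) and TFD (-0.71), with -0.44 in DF. Nlrp1b, one of these sensors, was at 3.27, 3.14 and 3.01 log2 CPM in WT, 4.59, 4.83 and 4.58 in DF, 4.71, 4.52 and 5.01 in TF, with 5.74 and 4.62 in TFD. It rose by 1.53 (SE 0.25, adjusted p = 0.000487), 1.62 (SE 0.25, adjusted p = 0.000423) and 2.15 (SE 0.26, adjusted p = 0.000117) on the log2 scale, and TFD replicate 1 stood well above the other libraries (the TFD value without it was 1.47). Naip6, another flagellin receptor that shares 21.5% of its windows with other genes, rose by 0.76 (adjusted p = 0.0103), 0.67 (adjusted p = 0.0225) and 0.90 (adjusted p = 0.00915), with the call in TFD lost without TFD replicate 2 (0.47, adjusted p = 0.134) and that in TF without WT replicate 2, WT replicate 3 or TF replicate 1 (adjusted p = 0.0711, 0.0621 and 0.0994).

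Cofactors were mixed, with 2 of 7 higher and 1 lower in DF, 3 higher in TF and 1 higher in TFD. P2rx7 encodes the ATP-gated channel whose opening lets out potassium and activates NLRP3. It was at 4.0, 4.18 and 4.10 log2 CPM in WT, 5.59, 5.45 and 5.59 in DF, 5.82, 5.70 and 5.69 in TF, with 5.52 and 5.61 in TFD. The groups were far apart against their spread, with log2 fold changes of 1.45 (SE 0.10, adjusted p = 2.41e-06), 1.65 (SE 0.10, adjusted p = 8.07e-07) and 1.48 (SE 0.11, adjusted p = 4.63e-06). Gbp5, an interferon-induced GTPase, was called in TF (0.68, adjusted p = 0.0179), and not in DF (0.14, adjusted p = 0.614) or TFD (0.55, adjusted p = 0.0787). The call in TF was lost without WT replicate 1 or 2 or TF replicate 1 or 3, with adjusted p up to 0.0657. Of 6 further genes for caspases and membrane rupture, 3 were higher in DF, 2 in TF and 1 in TFD. Ninj1, which ruptures the membrane after pores have formed, rose in DF (0.97, adjusted p = 0.00237) and TF (0.88, adjusted p = 0.00463) and had 0.59 in TFD (adjusted p = 0.0659), where the libraries stood apart, at 4.80 and 4.05 log2 CPM beside 3.78 to 4.07 in WT. The TFD value of Ninj1 was 0.15 without TFD replicate 1 (adjusted p = 0.691) and 0.91 without TFD replicate 2 (adjusted p = 0.0121), and it passed with the replicate block (0.54, adjusted p = 0.0262) and with the Xist term (0.61, adjusted p = 0.0298).

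Il1b, the other cytokine precursor cleaved by caspase-1, did not rise with the caspase and was lower in DF and TFD. It was at 8.71, 7.24 and 7.95 log2 CPM in WT, 6.87, 6.58 and 7.42 in DF, 7.55, 6.61 and 7.24 in TF, with 7.08 and 6.55 in TFD. The WT libraries spread widely (SD 0.74), and the lowest of them overlapped DF and TF. Il1b fell in DF (-1.09, SE 0.34, adjusted p = 0.0223) and TFD (-1.25, SE 0.39, adjusted p = 0.0308) and did not pass in TF (-0.91, SE 0.34, adjusted p = 0.0518). Without WT replicate 1, the highest library, these values were -0.68 (adjusted p = 0.104), -0.80 (adjusted p = 0.109) and -0.47 (adjusted p = 0.262). The DF call was lost also without DF replicate 1 or 2, and the TFD call without WT replicate 3 or either TFD library (adjusted p up to 0.174), whereas Il1b passed in TF without WT replicate 2, DF replicate 3, TF replicate 1 or TFD replicate 2 (adjusted p down to 0.0154). Il18r1, a chain of the IL-18 receptor, fell in TF (-0.57, adjusted p = 0.0376), and did not pass in DF (0.15, adjusted p = 0.549) or TFD (-0.39, adjusted p = 0.215). The TF call was lost without WT replicate 2 or 3, DF replicate 2 or any single TF library, with adjusted p up to 0.157. Of 3 tested genes for interleukin substrates and receptors, 1 fell in each genotype. Of 4 inhibitors, 1 fell in DF, 2 fell in TF and 2 in TFD, and none rose. Il1rn, the antagonist of the IL-1 receptor, fell in TF (-0.91, adjusted p = 0.0213) and TFD (-0.92, adjusted p = 0.0426), with -0.32 in DF (adjusted p = 0.368). The TF call was lost without WT replicate 2 or TF replicate 1 (adjusted p up to 0.0782), the TFD call without any single WT library or without TFD replicate 2 (up to 0.269), and Il1rn passed in DF without DF replicate 3 (-0.76, adjusted p = 0.0232), with adjusted p up to 0.738 in the other leave-one-out fits. Tnfaip3, which encodes the deubiquitinase A20, fell in DF (-0.88, adjusted p = 0.0248), and had -0.50 in TF (adjusted p = 0.178), while TFD had -0.87 (adjusted p = 0.0591). The DF call was lost without WT replicate 1 or DF replicate 1 or 2 (adjusted p up to 0.101), and Tnfaip3 passed in TF without TF replicate 3 (-0.78, adjusted p = 0.0385) and in TFD without TF replicate 2 or 3 (adjusted p = 0.0201 and 0.0271), with adjusted p up to 0.503 in TF and 0.316 in TFD in the other leave-one-out fits.

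**Figure D4:**
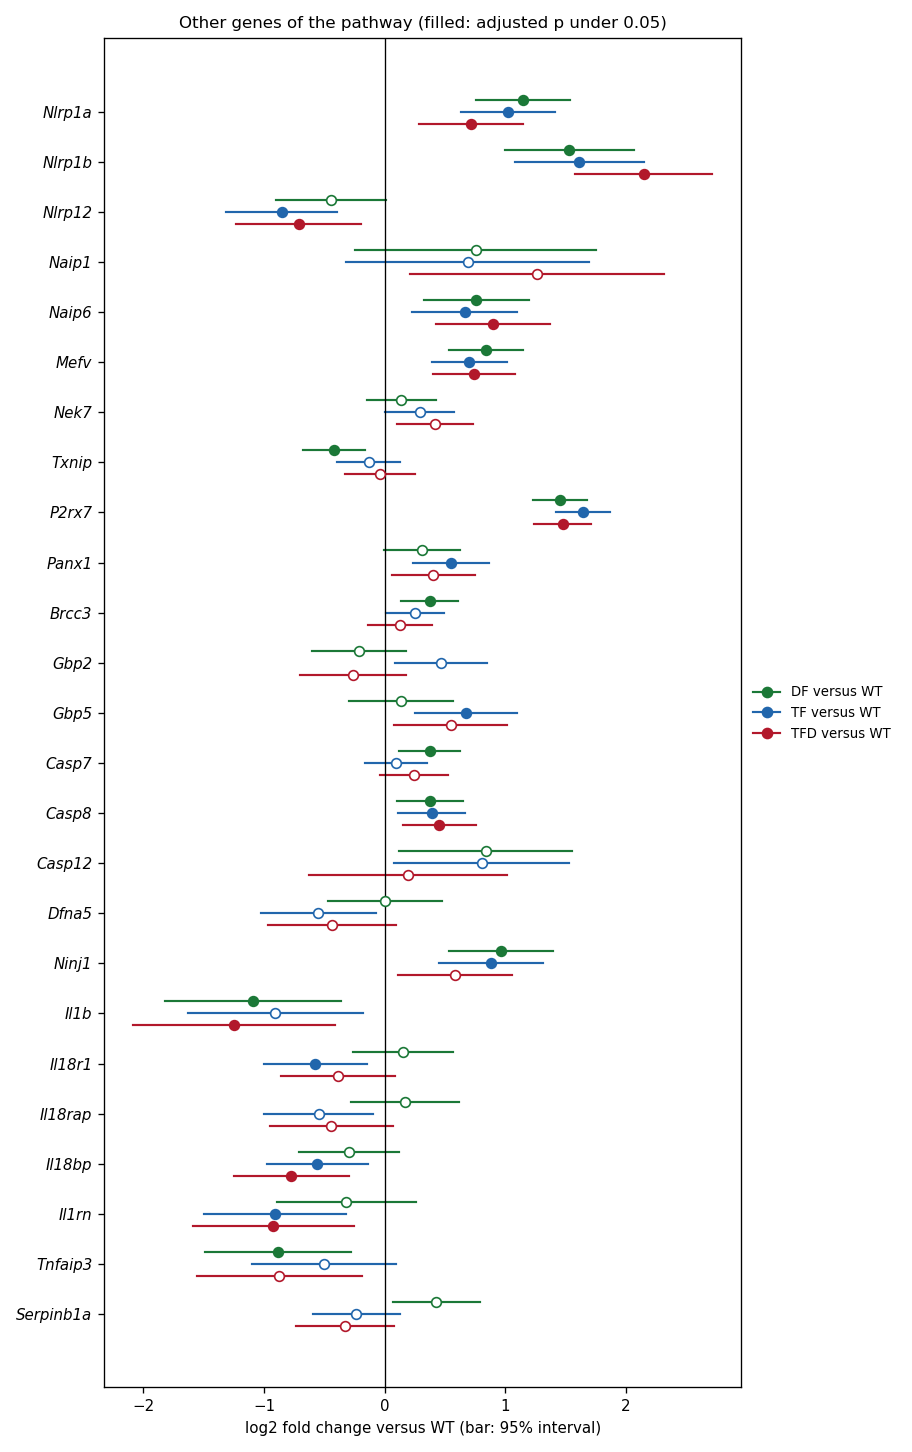
Log2 fold change versus WT (horizontal axis, log2 units) of other pathway genes in DF, TF and TFD, with bars for the 95% interval and filled points for an adjusted p under 0.05. P2rx7, Nlrp1b, Nlrp1a, Mefv, Naip6 and Casp8 are filled to the right of 0 in every genotype, and filled points to the left of 0 include Il1b and Il1rn.

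Markers of cell types moved with these results. Of 9 monocyte markers, 8 were higher in DF, 9 in TF and 7 in TFD, with medians of 1.33, 1.34 and 1.48 on the log2 scale, which is above the log2 fold change of every inflammasome member. Early granulocyte markers, led by Mpo and Prtn3, were higher for 4 of 4 in DF, 1 in TF and 2 in TFD. Late neutrophil markers, led by S100a9 and S100a8, had 0 of 9 called in DF, 3 lower in TF and 1 lower in TFD. Tissue macrophage markers, led by Mrc1 and Adgre1, had 1 of 8 higher and 6 lower in DF, 2 and 2 in TF, and 2 and 4 in TFD. All 8 B cell markers were lower in each genotype, with medians of -6.12, -4.21 and -6.20. Erythroid markers, led by Tfrc and Slc4a1, were lower for 6 of 6, 5 and 5. T cell markers (Lck and Cd4 first) were lower for 4 of 6, 1 and 3, and NK cell markers (Klrd1 and Klrb1c first) for 3 of 4, 3 and 2, with 1 higher in TF. Megakaryocyte markers (Itga2b and Pf4 first) were lower for 2 of 4 in DF, with none called in TF and 1 higher in TFD. Eosinophil, basophil or mast cell markers (Prg2 and Epx first) were lower for 1 of 5, 2 and 1, and dendritic cell markers (Siglech and Zbtb46 first) for 3 of 4 in DF, none in TF and 1 in TFD, with 1 higher in TF and in TFD. The largest number of markers of any list at 0 in a library was 2, for B cells in DF.

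**Figure D5:**
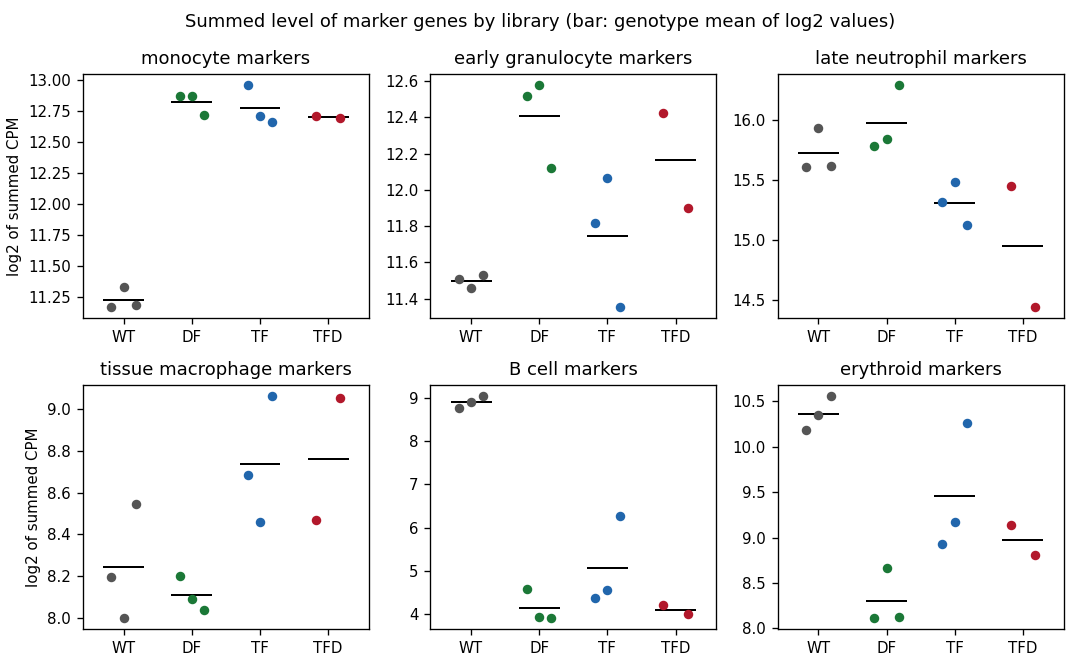
Summed level of marker genes of 6 cell types in each library (vertical axis, log2 of summed CPM, with its own range in each panel), with points for libraries and bars for the genotype mean of the log2 values. Monocyte markers are higher and B cell markers lower in every mutant library than in every WT library.

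Members also differed in how they moved together over the 11 libraries, which share WT and mutant groups, so these correlations are a description. Pearson's r was 0.91 between Pycard and Gsdmd and 0.90 between Pycard and Casp1 and between Casp1 and Gsdmd. Deviations from the genotype means gave -0.02, 0.39 and 0.34 for the same pairs, so most of the likeness lay between genotypes. Within genotypes the highest values were 0.71 for Nlrp3 with Casp4 and 0.65 for Nlrp3 with Aim2. Among 9292 genes with a mean of at least 3 log2 CPM, the gene most like each member was Ptpra for Aim2 (r = 0.99), Tmem5 for Pycard (0.99), Nrp1 for Gsdmd (0.98), Atp5c1 for Casp1 (0.98), Anxa2 for Naip2 (0.96), Aaed1 for Naip5 (0.93), Lmln for Nlrc4 (0.91), Nod2 for Nlrp3 (0.91) and Nsdhl for Casp4 (0.84). For Il18 it was Igtp (0.87).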

How the data were processed

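RNA was extracted from whole BM cells, depleted of globin mRNA and made into libraries with the Illumina TruSeq Stranded Total RNA kit. The authors checked read quality (FastQC), mapped reads to mm10 by STAR, and counted those that mapped uniquely on refGene genes by featureCounts, leaving out genes that did not exceed 0.5 CPM in more than 3 samples. Not given in the sources used here are the versions of these tools and whether counting used strand. The deposited counts, whole reads that were not normalized, cover 12199 genes in 11 libraries. The authors' log2 CPM values were rebuilt from them to within 4.99921e-09 (edgeR, TMM factors, prior count 0.25). The deposited table also holds gene lengths in bases, used here for RPKM. Libraries were assigned to genotypes by their labels, and the number of columns left without a sample was 0.

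The same expression filter, applied to these libraries, left 12175 genes to test. The test was edgeR 4.0.16 in R 4.3.3 (quasi-likelihood F test, TMM factors from 0.924 to 1.04), fitted to all 4 genotypes together, Benjamini-Hochberg adjustment over all genes tested and calls at an adjusted p under 0.05. Standard errors were derived from the F statistic and 95% intervals from the t distribution. Each result was recomputed with DESeq2 1.42.0, limma 3.58.1 on log2(CPM + 1), scaling by library totals or by RLE factors, no filter, a fit of the compared genotypes alone, the replicate numbers as a block, and a covariate marking libraries that held 10000 Xist reads or more, which stands for sex. Libraries were also left out in turn. The procedures were tested on simulated data.

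The members, the pathway lists and the marker lists were chosen with earlier results of these data known. The text names every member, in each pathway list up to 2 genes called in at least 1 genotype with the largest absolute log2 fold change in TFD versus WT, the gene most like each member, and the 2 most abundant markers of a list. Nlrp12, and the genes a caption adds, were named after their values were seen. A gene that this rule selects is not reported here. Nlrp6 and Il1a were not analysed here, and Gsdme was matched under its older symbol Dfna5. Promoter windows, motifs and shared 50-base windows were computed in Python 3.11.15 with pandas 2.3.3, and the alignments with Biopython 1.88. Figures were drawn with matplotlib 3.10.9.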

Additional observations from a re-analysis of the deposited data

Results flagged for a closer look

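Naip2 differed between DF and TF, whose effects against WT rest on the same WT libraries, by the test of the difference itself. The log2 fold change between DF and TF was 0.39 (SE 0.10, adjusted p = 0.0413, edgeR's quasi-likelihood F test), with the 3 DF libraries at 7.79 to 8.12 log2 CPM and the 3 TF libraries at 7.55 to 7.67. In DF versus TF, 5.94% of all genes tested were called in either direction. Of the 10 inflammasome genes, Naip2 was the only gene called between mutant genotypes by edgeR with all libraries. The call was lost in 9 of the 11 fits that each left out a library (adjusted p up to 0.188), and with library totals, RLE factors, the 2 genotypes alone, the replicate block or the term for Xist reads (adjusted p from 0.0553 to 0.0881). Marker lists differed in the same comparison: 5 of 6 erythroid (median -2.73 on the log2 scale), 5 of 8 tissue macrophage (-1.57) and 3 of 4 dendritic cell markers (-4.06) were called lower in DF than in TF. Of all genes tested, 4.27% were called lower in DF than in TF. Among the TF libraries, replicate 3 had the highest summed level of each of these lists. Of the granulocyte lists, 1 of 4 early granulocyte markers was called higher (median 0.66; 4456.71 to 6108.35 summed CPM in DF and 2614.82 to 4293.69 in TF). The log2 fold changes of 9 of 9 late neutrophil markers were above 0 (median 0.71), and these did not pass the test. The part of these markers in the Naip2 difference was not tested.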

How the results depend on the processing

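Against WT, the members were called 17 times, and in 134 of the 136 values that alternatives other than leaving out a library gave for them, direction and call were the same. The exceptions are Naip2 in TFD with only the genotypes compared (0.34, adjusted p = 0.103) and with the replicate block (0.36, adjusted p = 0.0572). Leaving out each library in turn kept 178 of 187. The number of members called in TFD ranged from 3 to 5, and in DF versus TF from 0 to 1. Fits that leave 1 TFD library assume that it varies like the other groups. In DF versus TF, 0 members were called with library totals, RLE factors, only the genotypes compared, the replicate block or the term for Xist reads. In DF versus TFD, DESeq2 called 1. Over all genes, edgeR called 0 in DF versus TFD and 2 in TF versus TFD, against 258 and 131 by DESeq2 and up to 387 and 75 without TFD replicate 1, and its 723 calls in DF versus TF became 169 without DF replicate 2. The cause of these shifts was not tested. Correlations of deviations from the genotype means were -0.30 to 0.25 for libraries of the same replicate number and -0.22 to 0.30 for different numbers. Such deviations are tied to each other within a genotype, and mirrored for the TFD libraries. They cannot decide whether the replicate numbers pair the libraries.

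Some small differences changed sign, and none of these was called. With the term for Xist reads, Nlrp3 became 0.0071 in DF versus WT and 0.067 in DF versus TF, and Nlrc4 -0.0061 in DF versus TF. With library totals, DF versus TF gave -0.053 for Nlrc4, -0.040 for Naip5 and -0.050 for Gsdmd, and DF versus TFD gave -0.068 for Gsdmd, for which DESeq2 gave -0.0015 and RLE factors -0.0014. Over the fits without 1 library, Nlrp3 ranged from -0.14 to 0.086 in TF versus WT and from -0.19 to 0.058 in DF versus TF, and Casp4 from -0.061 to 0.29 in TF versus WT and from -0.10 to 0.25 in DF versus TF. In DF versus TF, Nlrc4 ranged from -0.088 to 0.12, Naip5 from -0.014 to 0.14 and Gsdmd from -0.0092 to 0.054. In comparisons with TFD, Aim2 ranged from -0.34 to 0.10 (DF) and from -0.20 to 0.26 (TF), Il18 from -0.10 to 0.40 (TF) and Gsdmd from -0.026 to 0.034 (DF). Il18r1 in DF versus WT ranged from -0.065 to 0.31. Read depth limits Il18, at 24 to 73 reads per library.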
